A study of Mus musculus with 6 samples.

Results

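The genes described here encode the core of the Fas and TRAIL death pathway: the ligands Fasl and Tnfsf10 (TRAIL), the receptors Fas and Tnfrsf10b, the adaptor Fadd, the caspase inhibitor Cflar and the initiator caspase Casp8. They were taken by symbol from a table of read counts for 54532 mouse genes. All 7 were in the table and all 7 passed the filter on low counts. RNA had been sequenced from bone marrow cells selected with CD8 microbeads. The mice were female CByB6F1 hybrids of 2 to 5 months with immune bone marrow failure (BMF), and marrow of 2 to 3 mice was pooled for each library. In 3 libraries (pools 1 to 3) the mice had been given ruxolitinib, a drug that blocks the Janus kinases JAK1 and JAK2, through which interferon and cytokine receptors signal. In 3 control libraries (pools 4 to 6) mice with the same disease were untreated. The sources used here do not state the dose or the length of treatment. The question is how these transcripts differ between treated and untreated mice with the disease. The labels do not say that the pools came from separate experiments, so p-values measure the spread between these pools.

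Cytotoxic T cells kill partly through death ligands on their surface. Fas ligand and TRAIL bind receptors on the target cell, whose death domains recruit FADD. FADD in turn gathers procaspase-8, which activates itself by cleavage and starts the executioner caspases. The product of Cflar, c-FLIP, resembles caspase-8 but lacks protease activity, and it competes for the same docking site. In immune marrow failure Fas on blood-forming cells is a known route of their destruction by T cells, while Fas on activated T cells also limits their own survival.

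Promoter sequences from RefSeq (GRCm38.p6, the assembly of mm10) were matched for 6 of the 7 genes. Those of Fas and Tnfsf10, which passed the test described below, are printed beside those of Fasl and Casp8, which did not pass the test. Each is the 250 bases before the RefSeq start site, 5′ to 3′ on the gene's strand. They lie at chr19:34290409-34290658 (+ strand, Fas), chr3:27316827-27317076 (+ strand, Tnfsf10), chr1:161788496-161788745 (- strand, Fasl) and chr1:58802252-58802501 (+ strand, Casp8, upstream of an internal start). The deposited coordinates of Tnfsf10 begin at 27317028, inside its window. The end of that window, with the match nearest the RefSeq start site, thus lies within the deposited gene. Capitals mark matches to the interferon regulatory factor core AANNGAAA or the STAT element TTCNNNGAA.
Fas: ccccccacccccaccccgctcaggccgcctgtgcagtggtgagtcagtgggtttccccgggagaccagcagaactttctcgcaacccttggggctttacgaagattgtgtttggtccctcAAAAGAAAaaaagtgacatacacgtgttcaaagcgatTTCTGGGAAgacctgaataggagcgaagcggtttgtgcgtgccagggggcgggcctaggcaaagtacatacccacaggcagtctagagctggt
Tnfsf10: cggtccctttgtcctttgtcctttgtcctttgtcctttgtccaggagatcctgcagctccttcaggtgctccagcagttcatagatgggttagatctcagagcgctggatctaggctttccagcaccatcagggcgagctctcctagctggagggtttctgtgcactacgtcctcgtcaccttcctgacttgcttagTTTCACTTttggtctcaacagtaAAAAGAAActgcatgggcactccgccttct
Fasl: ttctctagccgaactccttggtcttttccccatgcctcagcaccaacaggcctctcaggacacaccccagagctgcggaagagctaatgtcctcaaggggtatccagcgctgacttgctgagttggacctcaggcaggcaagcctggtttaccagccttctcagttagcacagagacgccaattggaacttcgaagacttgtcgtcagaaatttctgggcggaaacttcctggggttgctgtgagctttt
Casp8: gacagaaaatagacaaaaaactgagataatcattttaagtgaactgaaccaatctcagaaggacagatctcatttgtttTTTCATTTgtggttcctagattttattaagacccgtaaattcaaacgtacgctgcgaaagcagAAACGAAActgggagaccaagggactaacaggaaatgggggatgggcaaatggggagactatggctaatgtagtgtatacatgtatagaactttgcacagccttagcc
Both strands were searched. Fas held 1 match to the interferon regulatory factor core and 1 to the STAT element, which do not overlap. Tnfsf10 and Casp8 each held 2 matches to the core, and Fasl, Fadd and Cflar held no match to either. The longer interferon-stimulated response element, searched as 2 copies of GAAA with 2 bases between them and containing the core, was in none of the 6 windows. Of 32851 RefSeq promoter windows of the same length, 21.3% held the core, 7.02% the STAT element and 2.98% the longer element. A match describes letters only, and it occurred in Fas and Tnfsf10 as well as in Casp8.

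The libraries held 13829808 to 17708196 counted reads. Levels are in CPM, read counts scaled to a common library size after correction by edgeR's TMM factors. Below, "relative to library totals" means relative to these TMM-corrected totals. Fold changes set ruxolitinib over control, as log2 values ± SE. For adjusted p-values the quasi-likelihood test of edgeR was used, with the Benjamini-Hochberg method over 13480 genes and 0.05 as the threshold. The selected cells differed between the groups. Cd8a, which encodes the CD8 alpha chain, was at 286 ± 173 CPM in ruxolitinib libraries and 943 ± 118 CPM in controls (SD, n = 3 each), and 16 of 17 CD8 T cell identity genes were lower. The geometric mean of those 17 genes was 95.01, 114 and 264 CPM in ruxolitinib pools 1, 2 and 3, against 554, 553 and 434 CPM in control pools 4, 5 and 6. Erythroid genes were all higher (12 of 12, summed level 124983 to 245026 CPM against 1916 to 2746 CPM), as were 14 of 15 monocyte and macrophage genes (9186 to 14989 CPM against 1268 to 1646 CPM) and 9 of 10 tested B cell and plasma cell genes (1054 to 1698 CPM against 205 to 273 CPM, with Ms4a1, Pax5 and Igll1 at 0 counts in controls). Of 12 granulocyte genes 8 were higher and 1 lower (8571 to 19742 CPM against 1567 to 6031 CPM), of 10 dendritic cell genes 6 and 3 (2179 to 2355 CPM against 1057 to 1219 CPM), of 8 stromal and endothelial genes 7 and 0 (127 to 173 CPM against 33.1 to 40.1 CPM), of 6 platelet genes 4 and 0 (33.9 to 62.9 CPM against 21.4 to 50.9 CPM) and of 6 CD4 and regulatory T cell genes 3 and 0 (219 to 232 CPM against 68.1 to 92.9 CPM). The natural killer receptor genes Ncr1, Klra4, Klrb1c and Klra8 had at most 14 reads in a library and were not tested. Ncr1 averaged 0.280 CPM with ruxolitinib and 0.0737 CPM in controls, and Klra4 0.0731 and 0 CPM. Klrb1c (0.445 and 0.615 CPM) and Klra8 (0.0244 and 0.0737 CPM) went the other way. Of the 4 tested genes of the natural killer list, Tyrobp and Fcer1g, adaptor genes shared with myeloid cells, were higher. They averaged 296 and 265 CPM with ruxolitinib and 49.4 and 61.1 CPM in controls. Klre1 (3.15 against 33.9 CPM) and Klra7 (0.0497 against 0.936 CPM) were lower. The summed level of the 8 genes, 422 to 698 CPM against 119 to 166 CPM, was mostly that of Tyrobp and Fcer1g. The part of these other cells in the results below was not tested, and in bulk RNA fewer cells of a type and less RNA per cell cannot be told apart.

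Relative to library totals, 2 of the 7 members fell with ruxolitinib (Fas and Tnfsf10), 1 rose (Cflar) and 4 did not pass the test. Among all tested genes 25.3% fell and 29.9% rose. All ruxolitinib pools lay below all control pools for Fas and Tnfsf10, as for 30.3% of tested genes, and above them for Cflar, as for 35.7%. The share of members that fell, 2 of 7, is near that of all genes, and 1 of 7 rose. The median log2 fold change of the 7 members was -0.85, against 0.03 over all tested genes. That median is the value of Tnfrsf10b, a gene with 7 to 39 reads per library that did not pass. When libraries were scaled instead to the CD8 identity genes, the median of all genes moved to 2.00, Fas and Tnfsf10 turned positive and did not pass, and Fadd, Cflar and Casp8 were higher.

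**Figure D1:**
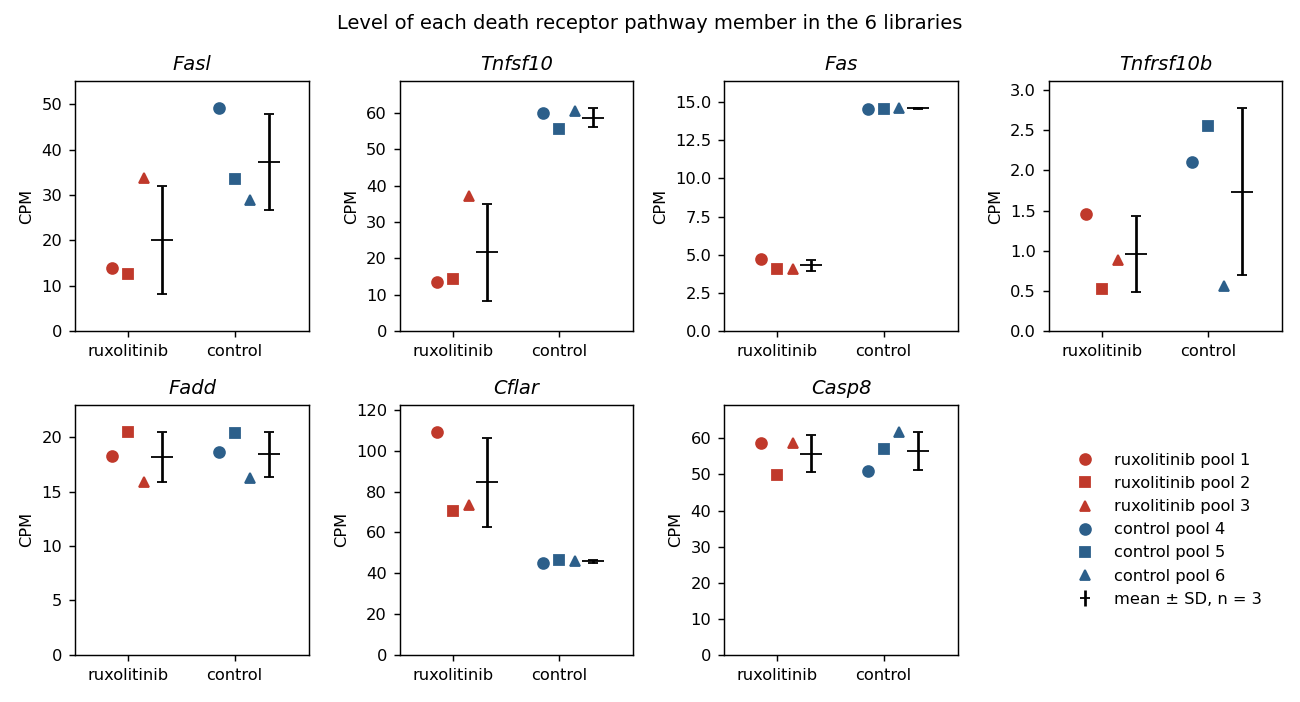
Level of each member in CPM (vertical axes, from 0) in the 3 ruxolitinib pools (red) and 3 control pools (blue), with mean and SD beside the points. Fas, Tnfsf10 and Cflar do not overlap between groups on this scale of TMM-corrected library totals, and ruxolitinib pool 3 stands above pools 1 and 2 for Fasl and Tnfsf10. Scaled to CD8 identity genes, the fold changes of Fas and Tnfsf10 are 0.23 and 0.24.

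Of the ligands, Tnfsf10 (ENSMUSG00000039304, chromosome 3, 27317028 to 27342427, mm10) encodes TRAIL. It was at 13.6, 14.4 and 37.1 CPM in ruxolitinib pools 1, 2 and 3, against 59.9, 55.7 and 60.6 CPM in control pools 4, 5 and 6. Pool 3 stood well above the other ruxolitinib pools but still below every control. The mean was 21.7 ± 13.3 CPM with ruxolitinib and 58.7 ± 2.68 CPM in controls (SD, n = 3 each). Relative to library totals it fell (log2 fold change -1.43 ± 0.36, edgeR adjusted p = 0.00820), 2.70-fold lower, but scaled to CD8 identity genes its value turned to 0.24 ± 0.57. The change was -2.07 without ruxolitinib pool 3, and with pool 1 left out it was -1.14 and missed the threshold (adjusted p = 0.0527).

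Fasl (ENSMUSG00000000817, chromosome 1, 161780689 to 161788495), the ligand of Fas and a product of activated T and natural killer cells, was at 14.0, 12.6 and 33.8 CPM in ruxolitinib pools 1, 2 and 3. In control pools 4, 5 and 6 it was at 49.2, 33.6 and 28.9 CPM. The groups overlapped, because pool 3 lay at the level of control pool 5 and above control pool 6. The log2 fold change of -0.89 ± 0.38 did not pass (edgeR adjusted p = 0.0748, 95% interval -1.75 to -0.03). It passed without ruxolitinib pool 3 (-1.49, adjusted p = 0.00393), with limma-voom (adjusted p = 0.0427) and with no filter on low counts (adjusted p = 0.0422).

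Both ligands followed the CD8 identity genes in the excess of ruxolitinib pool 3 over pools 1 and 2. Pool 3 exceeded the mean of pools 1 and 2 by 2.55-fold for Fasl, 2.65-fold for Tnfsf10 and 2.53-fold for the identity genes. Between pools 1 and 2 Fasl did not follow them. The identity genes lay at -2.43 and -2.17 log2 units from the control mean there, Tnfsf10 at -2.11 and -2.02, and Fasl at -1.38 and -1.53. Across control pools 4, 5 and 6 the match was looser. There the identity genes lay 0.12, 0.12 and -0.23 log2 units from the control mean, Fasl 0.44, -0.11 and -0.33, and Tnfsf10 0.03, -0.08 and 0.05. Set against the identity genes of the same library, with 0.5 CPM added to each level, Tnfsf10 had a log2 ratio of -2.75, -2.93 and -2.81 in ruxolitinib pools 1, 2 and 3 and -3.20, -3.30 and -2.83 in control pools 4, 5 and 6. The range over the ruxolitinib pools was narrow on that scale, and the groups differed by 0.28 (exact two-sided permutation p = 0.2). Fasl had a log2 ratio of -2.72, -3.12 and -2.94 in ruxolitinib pools and -3.48, -4.02 and -3.88 in control pools. Every ruxolitinib pool was thus above every control pool, by 0.87 on average. The exact two-sided permutation test gave p = 0.1, which is the lower limit for groups of 3, and 0.18 adjusted over the 9 ratios tested. Most genes are higher against the identity genes. With libraries scaled to them, the median log2 fold change of all genes was 2.00, and 70.5% were called higher. Fasl (0.84 ± 0.58, edgeR adjusted p = 0.179) and Tnfsf10 (0.24 ± 0.57) lay below that median and did not pass.

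**Figure D2:**
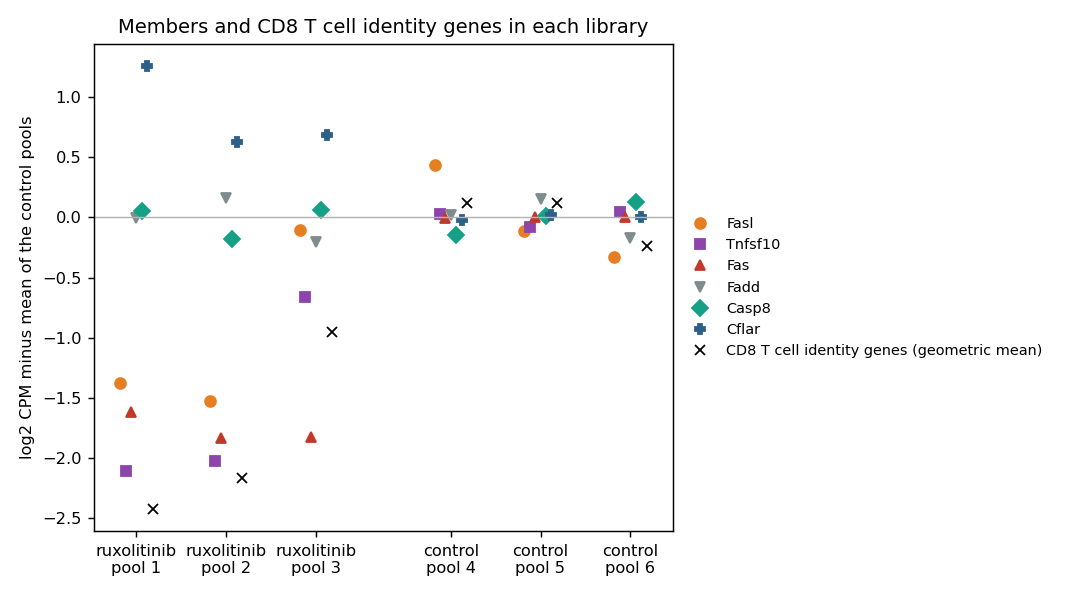
Log2 CPM of 6 members and of the geometric mean of the 17 CD8 identity genes in each library (horizontal axis), minus the mean of the 3 control pools (vertical axis). Points are single libraries. In ruxolitinib pool 3 Fasl, Tnfsf10 and the identity genes all lie nearer the controls (-0.10, -0.66 and -0.95) than in pools 1 and 2, while Fas is at -1.83 there. Tnfrsf10b, with 7 to 39 reads per library, is left out.

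Of the receptors, Fas (ENSMUSG00000024778, chromosome 19, 34290659 to 34327770) had the largest called fall of the 7 genes relative to library totals, although scaled to CD8 identity genes its value turned to 0.23 ± 0.64. It had 65, 54 and 65 reads in ruxolitinib pools 1, 2 and 3, against 263, 223 and 235 reads in control pools 4, 5 and 6. In CPM these were 4.75, 4.10 and 4.10 with ruxolitinib and 14.5, 14.6 and 14.6 in controls. All 3 ruxolitinib pools were alike and far below the controls. The mean was 4.32 ± 0.374 CPM with ruxolitinib and 14.6 ± 0.0382 CPM in controls (SD, n = 3 each), and the control SD is smaller than the 0.943 CPM that counting error alone gives at these reads. The log2 fold change was -1.75 ± 0.25 (edgeR adjusted p = 0.000353), 3.37-fold lower, and it ranged from -1.80 to -1.72 with any 1 pool left out.

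Fas did not follow the CD8 identity genes within the ruxolitinib group. Pool 3 was at 0.927 times the mean of pools 1 and 2. The log2 ratio of Fas to the identity genes was -4.18, -4.63 and -5.84 in ruxolitinib pools 1, 2 and 3, against -5.20, -5.20 and -4.84 in control pools 4, 5 and 6. Pools 1 and 2 thus lay above all controls on this scale and pool 3 below all of them. The groups differed by 0.20 with an SD of 0.860 among ruxolitinib pools (exact two-sided permutation p = 0.7), and the difference turned to -0.15 without ruxolitinib pool 1.

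Tnfrsf10b (ENSMUSG00000022074, chromosome 14, 69767472 to 69784411), the death receptor for TRAIL in mice, had few reads in every library. It had 20, 7 and 14 reads in ruxolitinib pools 1, 2 and 3 and 38, 39 and 9 reads in control pools 4, 5 and 6. The groups overlapped, since control pool 6 had fewer reads than ruxolitinib pools 1 and 3. The log2 fold change was -0.85 ± 0.63 (edgeR adjusted p = 0.276, 95% interval -2.27 to 0.57). The SD among control pools was 1.04 CPM, against 0.325 CPM from counting error. The value was -1.28 without control pool 6 (edgeR adjusted p = 0.0564) and -0.45 without control pool 5 (0.630).

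The adaptor and the caspase had values near 0. Fadd (ENSMUSG00000031077, chromosome 7, 144577318 to 144582463), which links the receptors to the caspase, was at 18.3, 20.5 and 15.9 CPM in ruxolitinib pools 1, 2 and 3, against 18.6, 20.4 and 16.3 CPM in control pools 4, 5 and 6. Casp8 (ENSMUSG00000026029, chromosome 1, 58795374 to 58847503) was at 58.6, 49.8 and 58.7 CPM in ruxolitinib pools, against 51.0, 57.0 and 61.7 CPM in control pools. In both genes the groups overlapped. The log2 fold change was -0.02 ± 0.22 for Fadd (95% interval -0.50 to 0.47, edgeR adjusted p = 0.950). For Casp8 it was -0.02 ± 0.19 (95% interval -0.44 to 0.40, edgeR adjusted p = 0.930). Scaled to the CD8 identity genes both were higher, Fadd by 2.00 ± 0.60 (adjusted p = 0.00175) and Casp8 by 1.93 ± 0.58 (adjusted p = 0.00201), at the median of all genes under that scaling. Faddos, an antisense gene that overlaps Fadd, had at most 2 reads in a library, and Gm37760, within Casp8, at most 8.

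Cflar (ENSMUSG00000026031, chromosome 1, 58711508 to 58758884), the gene of the caspase inhibitor c-FLIP, was the only member that rose relative to library totals. It was at 109, 70.5 and 73.6 CPM in ruxolitinib pools 1, 2 and 3, against 45.2, 46.5 and 45.8 CPM in control pools 4, 5 and 6. Every ruxolitinib pool was above every control pool, with pool 1 the highest, and the controls were alike. The mean was 84.5 ± 21.6 CPM with ruxolitinib and 45.8 ± 0.635 CPM in controls (SD, n = 3 each, with a counting error of 1.67 CPM in controls). The log2 fold change was 0.88 ± 0.22 (edgeR adjusted p = 0.00714), 1.85-fold higher, and 0.68 to 1.00 with any 1 pool left out, where the highest adjusted p was 0.0297. Under CD8 identity scaling, where the median of all genes is 2.00, it was 2.92 ± 0.61.

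Cflar and Casp8 are neighbours on chromosome 1, on the same strand, with 36489 bases between them, and their products meet in the same complex. The log2 ratio of Cflar to Casp8, in reads per kilobase of deposited length and free of library scaling, was -1.23, -1.63 and -1.80 in ruxolitinib pools 1, 2 and 3. In control pools 4, 5 and 6 it was -2.31, -2.43 and -2.56. All ruxolitinib pools lay above all control pools. The means were -1.55 ± 0.295 with ruxolitinib and -2.43 ± 0.127 in controls (SD, n = 3 each), a difference of 0.88 (exact two-sided permutation p = 0.1, the smallest possible, and 0.18 adjusted over the 9 ratios). The log2 ratio of Fasl to Fas was 1.45, 1.52 and 2.94 in ruxolitinib pools, against 1.65, 1.10 and 0.88 in control pools. Ruxolitinib pool 3 was the highest, while ruxolitinib pools 1 and 2 lay within the range of the controls. The difference of 0.76 had an exact two-sided permutation p of 0.3, and it was 0.27 without ruxolitinib pool 3. Which cells carry each transcript cannot be read from these ratios, since the libraries mix cell types.

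**Figure D3:**
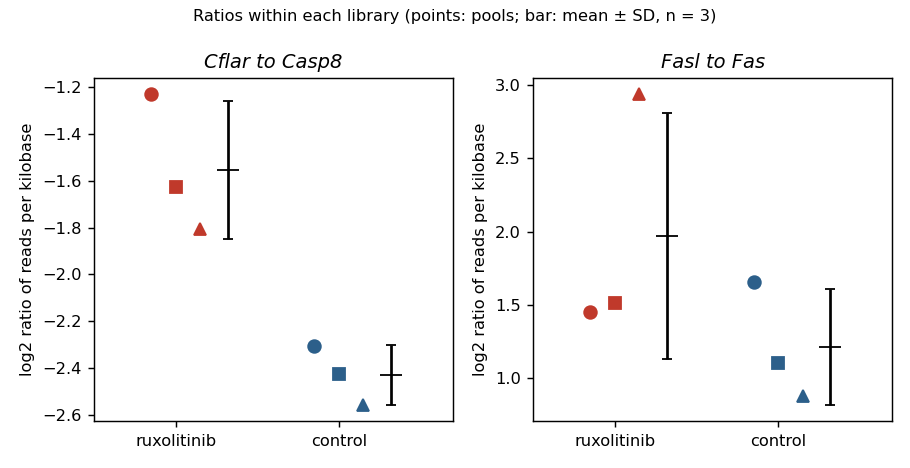
Log2 ratio of Cflar to Casp8 (left) and of Fasl to Fas (right) in reads per kilobase, for 3 ruxolitinib pools (red) and 3 control pools (blue), with mean and SD. Cflar to Casp8 is -1.80 or above in every ruxolitinib pool and -2.31 or below in every control pool, whereas the Fasl to Fas ratios overlap.

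Per kilobase of deposited length, Casp8 was the highest of the 7 in both groups, at 19.3 ± 1.77 CPM per kilobase with ruxolitinib and 19.5 ± 1.85 in controls. With ruxolitinib Fasl (10.4 ± 6.14), Cflar (6.67 ± 1.71), Fadd (4.67 ± 0.588), Tnfsf10 (4.12 ± 2.53), Fas (2.40 ± 0.208) and Tnfrsf10b (0.176 ± 0.0861) followed, in CPM per kilobase. In controls the order was Fasl (19.2 ± 5.48), Tnfsf10 (11.2 ± 0.509), Fas (8.09 ± 0.0212), Fadd (4.72 ± 0.525), Cflar (3.62 ± 0.0502) and Tnfrsf10b (0.319 ± 0.191). Differences between neighbours in this order were within the larger SD for Casp8 and Fasl in controls. With ruxolitinib this held for Fasl and Cflar, for Fadd and Tnfsf10, and for Tnfsf10 and Fas. The deposited length of Cflar, 12669 bases, covers all exons of its 13 GENCODE transcripts, so its level per kilobase is spread over exons that not every transcript holds. Fas has a deposited length of 1801 bases, against 2062 in GENCODE M21.

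**Figure D4:**
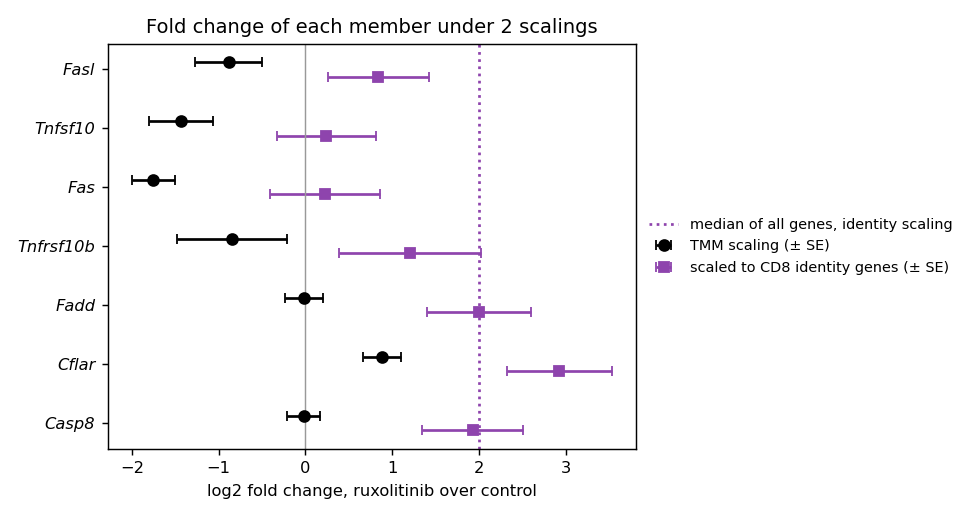
Log2 fold change (ruxolitinib over control, horizontal axis) of the 7 members under TMM scaling (circles) and with each library scaled to the CD8 identity genes (squares), with SE. Fas and Tnfsf10 are at -1.75 and -1.43 under TMM and at 0.23 and 0.24 under identity scaling, where the median of all genes (dotted line) is 2.00.

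The protein-coding genes whose centred log2 CPM over the 6 libraries lay nearest to each member's were listed by root mean square difference among 11950 genes. For Tnfsf10 they were Art2b, Rab26 and the T cell surface gene Cd6 (0.10, 0.12 and 0.13 log2 units). For Fasl they were Itga3, Tmie and Slain1 (0.10, 0.14 and 0.17), and for Fas they were Wdr77, Cdca7 and Pgls (0.09, 0.10 and 0.13). For Cflar they were Huwe1, Kidins220 and Dmtf1 (0.05, 0.06 and 0.06), for Fadd Trafd1, Sod2 and Dpy19l1 (0.05, 0.05 and 0.06) and for Casp8 N4bp2l1, Sh3bgrl and Ggcx (0.04, 0.04 and 0.05). The nearest to Tnfrsf10b, Ccdc40, 5330417C22Rik and Rars, were farther off (0.29, 0.32 and 0.34). With 2 groups of 3 libraries, this likeness includes the difference between the groups.

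The other genes of the death receptor pathway were split. Of 55 listed, 54 were tested, of which 20 fell, 10 rose and 24 did not pass relative to library totals, where 25.3% of all tested genes fell and 29.9% rose. Their median log2 fold change was -0.39, against 0.03 over all tested genes. Under CD8 identity scaling 17 of the 20 turned positive (2 of them, Daxx and Rnf31, called higher) and 1 was still called lower. That scaling moved the median of all genes to 2.00, with 70.5% of them called higher and 0.467% lower. All 20 stayed below that median. The 20 became 12 without ruxolitinib pool 1, and the 10 became 6 without that pool and 5 without control pool 5.

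Among 8 other death ligands and receptors, Tnfrsf21, which encodes death receptor DR6, rose to 90.5 ± 23.8 CPM with ruxolitinib, against 10.1 ± 1.42 CPM in controls (3.17 ± 0.26, edgeR adjusted p = 2.6e-05). Tnfsf12, the gene of the ligand TWEAK, rose as well (2.55 ± 0.30), and Tnfrsf25, which encodes death receptor DR3, a TNF receptor family member found on T cells, fell (-2.93 ± 0.46, and -1.05 under identity scaling). Tnf itself was at 5.46 ± 0.794 CPM with ruxolitinib and 8.82 ± 1.87 CPM in controls and did not pass (edgeR adjusted p = 0.0677). The tested decoy receptors for TRAIL were Tnfrsf23, which rose (1.77 ± 0.54), and Tnfrsf22 (0.24 ± 0.47, not passed). Tnfrsf23 averaged 2.70 ± 1.20 CPM with ruxolitinib and 0.779 ± 0.284 CPM in controls, and the genes are close copies of each other, so that the split of reads between them is uncertain. Tnfrsf23 missed the threshold when ruxolitinib pool 1 was left out (adjusted p = 0.0746), or ruxolitinib pool 2 (0.0832) or control pool 5 (0.0661).

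Of 6 regulators of the Fas complex, Pea15a, whose product binds FADD and caspase-8 through a death effector domain, rose to 236 ± 39.6 CPM, against 41.7 ± 3.98 CPM in controls (2.50 ± 0.22). Faim, the gene of a Fas apoptosis inhibitor, fell to 22.4 ± 3.12 CPM, against 53.0 ± 4.85 CPM in controls (-1.24 ± 0.20, and 0.66 under identity scaling). The Fas-binding protein gene Daxx also fell (-0.65 ± 0.23, and 1.30 under identity scaling), but did not pass without ruxolitinib pool 1 (adjusted p = 0.122), ruxolitinib pool 2 (0.104), control pool 4 (0.131) or control pool 5 (0.121). The values of Casp8ap2, Faf1 and Ptpn13 did not pass.

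Of 11 adaptors and ubiquitin enzymes of the receptor complexes, 5 fell relative to library totals. Under identity scaling all 5 were positive but below the median of all genes. Traf2, an adaptor that holds the ubiquitin ligases cIAP1 and cIAP2, fell to 53.9 ± 10.6 CPM, against 141 ± 39.1 CPM in controls (-1.39 ± 0.25, and 0.45 under identity scaling). Rbck1 (-1.01 ± 0.21) and Rnf31 (-0.71 ± 0.19), subunits of the linear ubiquitin ligase, fell too, though Rnf31 missed the threshold when ruxolitinib pool 1 was left out (adjusted p = 0.0547). Birc3, the gene of cIAP2, and the kinase gene Ripk1 rose (0.71 ± 0.22 and 0.61 ± 0.20). Ripk1 missed the threshold when ruxolitinib pool 1 (adjusted p = 0.0638) or control pool 5 (0.0516) was left out, as did Birc3 for ruxolitinib pool 1 (0.0778), ruxolitinib pool 3 (0.0638), control pool 4 (0.0501) or control pool 5 (0.0826). In the necroptosis list Zbp1, a nucleic acid sensor, fell to 17.7 ± 8.51 CPM, against 147 ± 30.1 CPM in controls. Its change of -3.04 ± 0.34 (edgeR adjusted p = 0.000119) was also called under identity scaling (-1.27 ± 0.57, adjusted p = 0.0390), the only one of the 20 still called lower there. Mlkl, the membrane-piercing effector, fell (-1.22 ± 0.25, and 0.70 under identity scaling), while the kinase gene Ripk3 had 0.19 ± 0.23.

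Of 8 genes of the mitochondrial arm, 4 fell, among them Bax, Cycs and Diablo, and Casp9 and Htra2 rose relative to library totals. Under identity scaling the 4 that fell were positive but below the median of all genes. Bax, the gene of a pore-forming death protein, fell to 61.4 ± 11.2 CPM, against 185 ± 25.9 CPM in controls (-1.59 ± 0.22). Cycs, which encodes cytochrome c and has many processed copies that could share its reads, fell by 1.54 ± 0.26, and Diablo, whose product frees caspases from XIAP, by 1.72 ± 0.45 (-1.10 without control pool 6). Casp9, the initiator caspase of this arm, rose (1.61 ± 0.21), and the protease gene Htra2 rose by 1.00 ± 0.37. Htra2 did not pass without ruxolitinib pool 1 (adjusted p = 0.0578), ruxolitinib pool 2 (0.190), control pool 5 (0.0635) or control pool 6 (0.0728). Bid, which links caspase-8 to this arm, was at 31.5 ± 5.63 CPM with ruxolitinib and 39.7 ± 2.46 CPM in controls and did not pass.

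Of 7 executioner genes, 2 fell relative to library totals. Dffb, the gene of a DNase that cuts chromatin in dying cells, fell to 8.38 ± 0.703 CPM with ruxolitinib, against 20.3 ± 8.37 CPM in controls (-1.27 ± 0.31, and 0.60 under identity scaling). Without control pool 6, where Dffb was at 29.9 CPM, the change was -0.90. Casp6, Xiap, Dffa and Parp1 had values between -0.13 and 0.26 and did not pass. Among 9 transcription factor genes linked to death ligand or receptor transcription, 4 fell and 2 rose relative to library totals. Irf1 (-1.21 ± 0.32, and 0.52 under identity scaling) and Stat3 (-1.04 ± 0.24, and 0.83 under identity scaling) were among those that fell, Irf1 not passing without ruxolitinib pool 1 (adjusted p = 0.0573). Foxo3 rose (2.67 ± 0.36), as did Nr4a1 (0.69 ± 0.20, adjusted p = 0.0511 without control pool 5). Egr3, Nfatc1 and Nfatc2, factors of T cell activation, did not pass (0.28 ± 0.35, 0.09 ± 0.32 and -0.13 ± 0.24). Egr2, of the same list, was among the genes that fell (-0.92 ± 0.31, edgeR adjusted p = 0.0311, and 0.91 under identity scaling). Its groups overlapped.

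**Figure D5:**
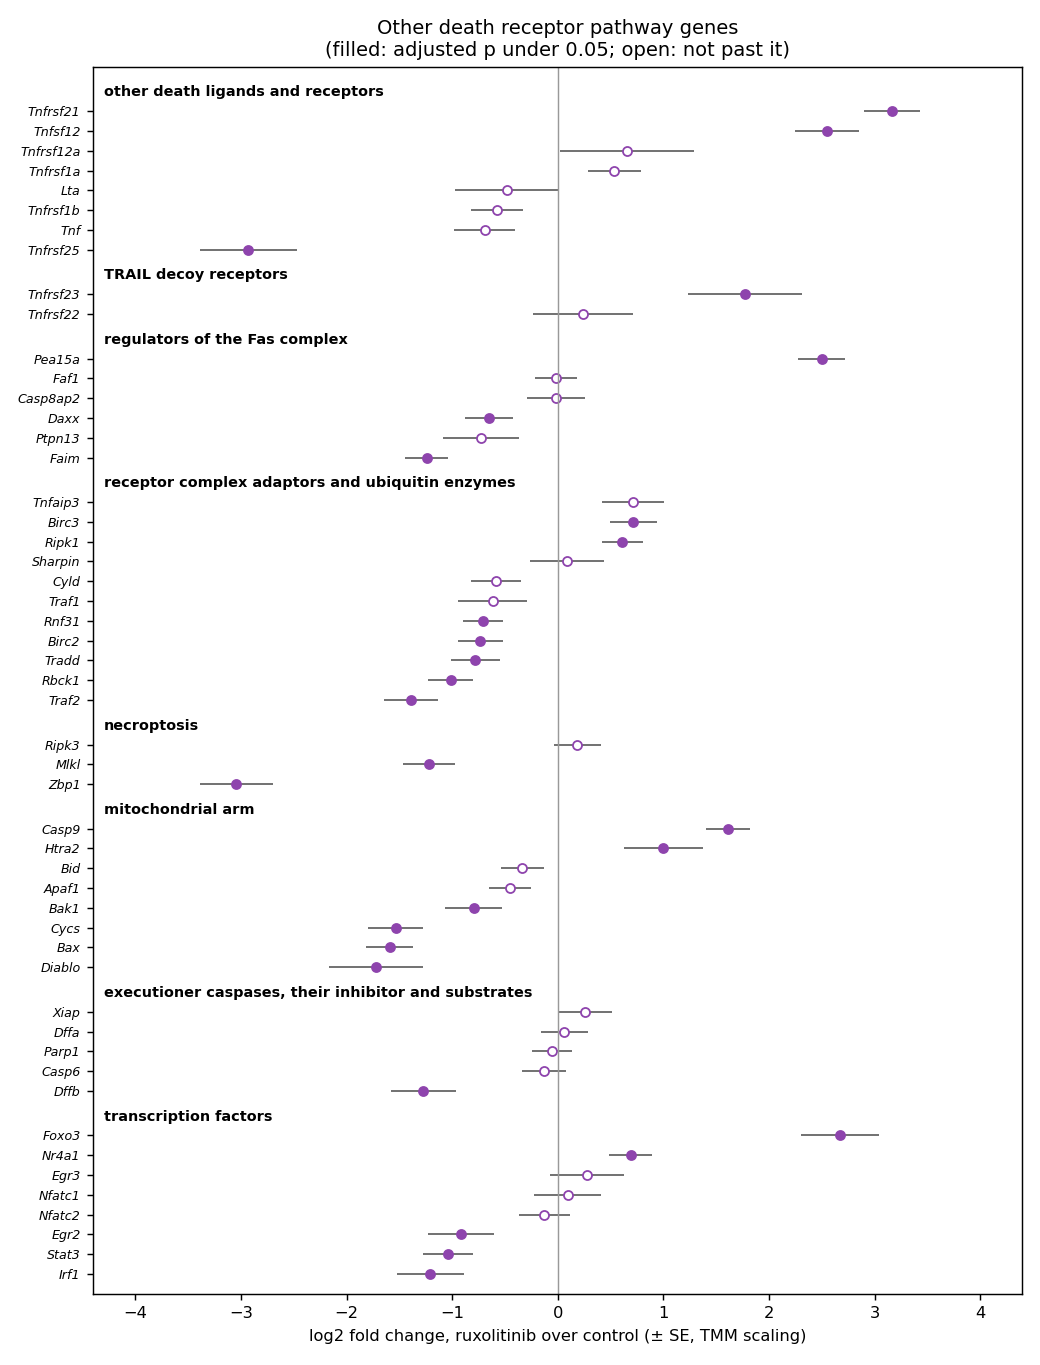
Log2 fold change ± SE (ruxolitinib over control, horizontal axis, TMM scaling) of 51 other pathway genes, grouped by role. Filled points passed an adjusted p of 0.05, and 18 of them lie to the left of 0 and 10 to the right. Under CD8 identity scaling 16 of the 18 were positive, but all 18 were below the median of all genes, 2.00.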

How the data were processed

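RNA of 6 pools was sequenced from NEBNext Ultra II libraries, per the labels' protocols. The values deposited by the authors are raw counts of reads for each gene, with library totals of 13829808 to 17708196. HISAT2 2.0.5 and the mm10 genome are named in the submitters' processing notes. Neither the counting program nor its strand setting or annotation is stated in the sources used here. Without the strand setting, reads of a gene and of an antisense partner cannot be told apart. Of the 54532 identifiers, 54409 are in GENCODE M21, 98.3% of those with the same coordinates.

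The count test was edgeR's quasi-likelihood test (version 4.0.16, R 4.3.3), with group as the only term, after filterByExpr and TMM scaling, with robust dispersions. The SE is the fold change divided by the root of F. The 95% intervals use the test's degrees of freedom. Ratios within a library got an exact two-sided permutation test over the 6 pools, after adding 0.5 CPM where the identity genes were the base. No replicate pair agreed within counting noise (chi-square per degree of freedom 18.6 to 132). Reads are not independent molecules, so a counting SD is only a lower limit of the error.

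The members and lists were chosen with earlier results of these data known. Named genes were all members, up to 3 called genes with the smallest p per direction in each role list (all genes of a list with 5 or fewer called), and the 3 nearest genes to each member (log2 CPM, prior count 2). A few genes are not reported here, though the counts over lists include them. Values of uncalled genes given for context, and of Egr2, were chosen after their values were seen. Alternatives were RLE and upper-quartile factors, haemoglobin genes removed, CD8 identity scaling, no filter, at least 1 CPM in 3 libraries, protein-coding genes alone, DESeq2 1.42.0, limma-voom (limma 3.58.1), each pool left out and, for ratios, a pseudocount of 0.1 CPM, Cd3d, Cd3e and Cd3g as base, and no length. On simulated counts for this comparison (13248 genes, 3 libraries a group) 32 of 100 genes with a 2-fold change passed in edgeR, as did 97 of 100 with a 4-fold change. Only 200 genes were changed in the simulation, whereas 55.2% of tested genes were called in the data. With so few changed genes the adjustment is stricter, so these shares do not tell how often such changes pass in the data.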

Additional observations from a re-analysis of the deposited data

How the results depend on the processing

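No paired analysis was run because the labels name no pairs of ruxolitinib and control pools. The calls of Fas, Tnfsf10 and Cflar were the same under RLE and upper-quartile factors, haemoglobin removal, both other filters, protein-coding genes alone, DESeq2 and limma-voom. Scaling to the CD8 identity genes turned the log2 fold change of Fasl (0.84), Tnfsf10 (0.24), Fas (0.23), Tnfrsf10b (1.21), Fadd (2.00) and Casp8 (1.93) positive. It changed members called lower to 0 and higher to 3, other pathway genes lower to 1 and higher to 32, and all genes lower to 63 and higher to 9502. That scaling takes the identity genes as its fixed point. Fasl passed with no filter (-0.91) and with limma-voom (-0.98).

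With any 1 pool left out, the log2 fold change ranged from -1.49 to -0.61 for Fasl, -2.07 to -1.14 for Tnfsf10, -1.28 to -0.45 for Tnfrsf10b, -0.11 to 0.067 for Fadd and -0.082 to 0.053 for Casp8. Members called lower ranged from 1 to 3, other pathway genes called lower from 12 to 23 and higher from 5 to 10, and all genes called lower from 2306 to 3831. Tnfrsf10b had 7 to 39 reads per library.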
